A study of Drosophila melanogaster with 6 samples.

Results

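The transcription factors Sox21a and Sox100B and 5 further genes that mark or steer the progenitor cells of the fly midgut, hdc, zfh2, klu, mira and spdo, were read in a comparison of stem cell enriched populations from old and young flies. They were chosen by name, as the rows of the authors' deposited table whose gene field holds 1 of these 7 names, and 7 rows of 8164 in all met this rule. The samples were midgut cells sorted for GFP from yw flies, in 3 samples from old flies of 59 to 65 days and 3 from young flies of 6 to 8 days. Old and young flies alike carried the driver esg-GAL4 NP5130 together with the reporters UAS-GFP and UAS-GFPnlacZ, the last labelled N 1099, and no group without them was sequenced in the samples used here. Escargot-GAL4 is active in stem cells and in their enteroblast daughters, so the sort does not separate these.

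Intestinal stem cells of the fly divide to give a new stem cell and a daughter that becomes an absorptive enterocyte or a hormone-secreting enteroendocrine cell. Delta on the stem cell activates Notch in the daughter called the enteroblast, and strong Notch signalling leads to the enterocyte fate. Sox proteins bind DNA through a high mobility group box, and in this tissue Sox21a and Sox100B are needed for enteroblasts to become enterocytes. Miranda and Sanpodo, the products of mira and spdo, are known from the asymmetric divisions of the nervous system.

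Values per sample are not given, because the library columns carry names that match no sample label and were not used. The account rests on the comparison in the authors' deposited table, where each gene row has a mean log2 CPM (read counts scaled to a common library total), a log2 fold change between the ages, its p and an adjusted p. Whether old or young is on top of the fold change is not stated in the sources, so a sign carries no age direction. That table holds no standard errors, and sequencing depth was not analysed here. In bulk samples of sorted cells, fewer cells of a type and less RNA per cell cannot be told apart. The gene esg itself had a mean of 835 CPM in the authors' deposited table, the receptor gene N 176 CPM and its ligand gene Dl 26.5 CPM. With no unsorted group and no scaling for length, these levels cannot check the sort. Hormone genes of enteroendocrine cells were also present, at mean levels in the authors' deposited table from 6.02 CPM for CG14358 and 44.3 CPM for Tk to 120.2 CPM for Ast-C and 696 CPM for CG13565, which encodes Orcokinin.

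None of the 7 genes was called at an adjusted p under 0.05 in the exact test of the authors' deposited table, in which 7.10% of all rows were called. At an unadjusted p under 0.05 the count was also 0 of 7, whereas 19.3% of all rows in the authors' deposited table passed that mark. It stayed 0 of 7 at an adjusted p under 0.01, which 4.61% of all rows passed, under 0.1, which 10.9% passed, and after adjustment over rows of at least 5 CPM, of which 3.78% were called. None of the 4 members with a row of their own was called after adjustment over rows that name 1 gene, of which 7.14% were. Most of the 7 fold changes were below 0, as were most rows of their abundance. Of the 7 rows, 6 had a negative sign and 1 a positive sign in the authors' deposited table, against 46.2% negative among all rows. Among the 500 rows nearest to each member in mean abundance, the negative share ran from 65.6% for spdo to 81.4% for mira. Their median log2 fold change was -0.35, with a range from -0.64 to 0.10, and the median of all rows was 0.05 in the authors' deposited table. The missed threshold does not show that these genes had equal levels at both ages.

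**Figure D1:**
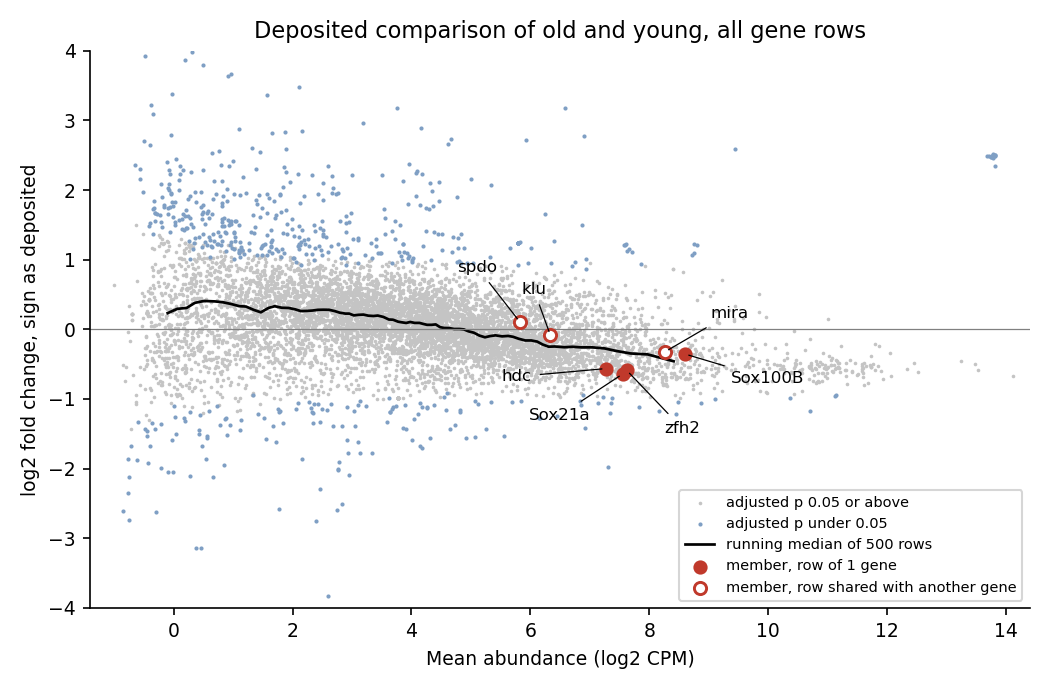
Each point is 1 gene row of the deposited comparison of old and young, with mean abundance in log2 CPM across and the log2 fold change, sign as deposited, upward. The black line is the running median of 500 rows, red circles are the 7 members (open where the row is shared with another gene), and 14 rows lie outside the plotted range. The members sit in the abundant part of the table, where the running median is below 0, and none is called.

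Sox21a, a SoxB factor of stem cells and enteroblasts (FBgn0036411, dm3 3L from 14097353 to 14100174, minus strand), had the most negative value of the 7. By the authors' deposited table its log2 fold change was -0.64, a 1.56-fold difference, at a mean of 188 CPM. The exact test of the authors' deposited table gave it p = 0.0562 before and 0.280 after adjustment, rank 1639 of 8164 rows by p. Sox100B, the SoxE factor of the fly (FBgn0024288, 3R from 26891078 to 26909129, plus strand), was the most abundant of the 7 rows, with 387 CPM in the authors' deposited table. Its log2 fold change was -0.35, a 1.28-fold difference that missed the threshold in the exact test of the authors' deposited table (adjusted p = 0.681). Both Sox rows thus shared a sign, and their difference from each other was not tested. Of the Sox family, Sox14, known for its role in metamorphosis, also had a row in the authors' deposited table, at -0.42 and 104 CPM (adjusted p = 0.563). The other 5 Sox genes of the family list had no row under the names searched.

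Headcase, the product of hdc, marks progenitor cells of several fly tissues, and zfh2 and klu encode zinc finger transcription factors of the enteroblast. The rows of hdc and zfh2 lay close to Sox21a in size and sign. For hdc (FBgn0010113, 3R from 26103655 to 26187891, plus strand), the authors' deposited table gave -0.56 on the log2 scale at 155 CPM (adjusted p = 0.401). The homeodomain factor gene zfh2 (FBgn0004607, chromosome 4 from 524476 to 560418, plus strand) stood at -0.59 and 197 CPM there, and the authors' deposited table gives p = 0.0683 before and 0.310 after adjustment. The differences were 1.48-fold for hdc and 1.50-fold for zfh2 in the authors' deposited table. Klumpfuss, the product of klu (FBgn0013469, 3L from 10974825 to 11001924, minus strand), restrains the enteroendocrine fate in enteroblasts. Its row had the smallest difference of the 7 in the authors' deposited table, -0.09 on the log2 scale at 80.9 CPM (adjusted p = 0.951). Sox21a, hdc and zfh2 therefore formed the negative end, and klu lay near 0.

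Miranda is an adaptor that carries fate determinants such as Prospero and Brat into 1 daughter of a dividing neural stem cell. Sanpodo is a transmembrane protein that raises Notch signalling and that Numb removes from the membrane of the daughter that inherits Numb. For the row of mira (FBgn0021776) the authors' deposited table lists -0.32 on the log2 scale at 307 CPM (adjusted p = 0.586). The row of spdo (FBgn0260440) was the only one of the 7 with a positive sign in the authors' deposited table, 0.10 (adjusted p = 0.906), and the least abundant, at 56.7 CPM. Neither value belongs to the named gene alone, because the authors merged each with a second protein-coding gene.

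The 4 rows of Sox21a, Sox100B, hdc and zfh2 named 1 gene, and all 4 had a negative sign in the authors' deposited table. The other 3 rows were shared, and 2 of them with a protein-coding gene. The row of mira (3R from 15755435 to 15834244, minus strand) also names Hs6st, a heparan sulfate sulfotransferase gene, and the row of spdo (3R from 26291773 to 26311521, plus strand) names PH4alphaEFB, which encodes a prolyl hydroxylase subunit. In the later release 6 annotation, mira lies on the strand of Hs6st inside its intron of 6721 bases between exons 5 and 6. Likewise spdo lies on the strand of PH4alphaEFB inside an intron of 4890 bases between exons 2 and 3. No exonic base is shared in either pair, yet the deposited row gives 1 value for both genes. The exons of the transcripts in the row measure 3322 bases for mira and 2657 for Hs6st, and 2087 bases for spdo and 2248 for PH4alphaEFB. How the reads of a row divide between its genes cannot be told from the comparison columns. The row of klu is shared with snoRNA:Me18S-G962, a small nucleolar RNA whose transcript was not matched in the release 6 annotation.

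**Figure D2:**
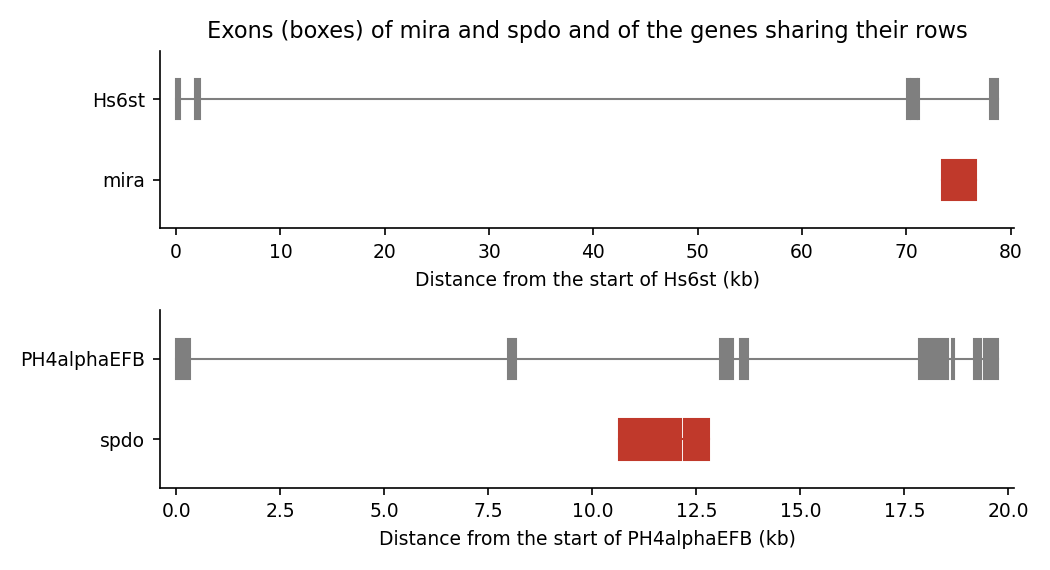
Exons (boxes) of the transcripts in the shared rows, from the release 6 annotation, against distance in kb from the start of the longer gene. The exons of mira lie in the last intron of Hs6st and those of spdo in the second intron of PH4alphaEFB, so that each row holds 2 separate sets of exons.

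No other row of the authors' deposited table overlapped the span of any of the 7 rows in dm3. The kit does not mark strand, so reads from a partner on the opposite strand could be counted as well. Whether they were is unknown, because the method of read counting is not given in the sources. In release 6, the exons of the zfh2 transcript share 1201 bases with exons of Tdg on the opposite strand. The row of Tdg, listed under its older name Thd1, does not overlap that of zfh2 in dm3. The hdc transcripts share 256 exonic bases with lncRNA:CR46114 on the opposite strand in release 6, where hdc is listed as heca. There CG34300 also lies on the opposite strand inside an hdc intron of 28904 bases. Inside an Hs6st intron of 67778 bases lie CG31213, CG46042 and CG4783. These nested genes share no exonic base with their host and have no row under these names. Exons of Sox21a, Sox100B and klu share no base with another annotated gene there, transposable elements left aside. For these 3 genes the release 6 annotation therefore gives no partner that could add antisense reads.

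Read counts depend on transcript length, so the order of the levels was taken from the mean CPM per kilobase of exon. Sox100B was highest, with 189 CPM per kb over 2049 exonic bases. Sox21a followed with 80.5 CPM per kb over 2335 bases, hdc with 32.4 over 4774 bases, and zfh2 with 18.5 over 10619 bases. On the scale of CPM alone, zfh2 with 197 CPM and Sox21a with 188 CPM stood side by side, while per kilobase Sox21a was higher. The klu row had 20.9 CPM per kb over 3870 bases of klu exon. The mira row had 51.4 CPM per kb over the exons of both its genes, and at most 92.5 CPM per kb for mira if every read were its own. For the spdo row these values were 13.1 and at most 27.2 CPM per kb. With no spread over samples available, which neighbours in this order differ cannot be said. Exon lengths come from release 6, where the Sox21a transcript spans 4638 bases against 2822 in the dm3 row, so its level per kilobase could differ with the authors' gene model.

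**Figure D3:**
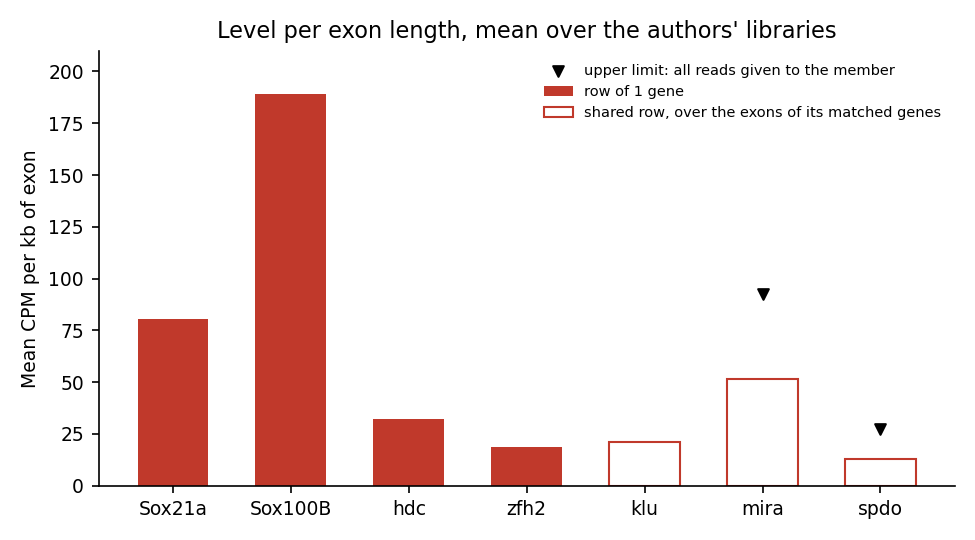
Mean CPM per kb of exon for each member, with filled bars for rows of 1 gene, open bars for shared rows over the exons of their matched genes, and triangles for the upper limit if all reads of the row were the member's. Sox100B stands at 189 and Sox21a at 80.5 CPM per kb, and hdc, zfh2, klu and spdo have the 4 lowest bars.

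Most rows of the abundance of the members had a negative sign in the authors' deposited table, and all 7 members rank above the 78th percentile of abundance. Between 128 and 256 CPM, where Sox21a, hdc and zfh2 lie, 78.9% of 422 rows had a negative sign in the authors' deposited table, with a median log2 fold change of -0.31. From 4 to 8 CPM the share was only 26.9% of 1099 rows, with a median of 0.25 in the authors' deposited table. Far above the members, from 8192 to 16384 CPM, only 3 of 18 rows were negative and 15 were called positive in the authors' deposited table. However, 14 rows of this range, sls and bbg among them, lie close together in both log2 fold change and log2 CPM. These positive calls are uncertain and were not read as separate genes that depart from the trend. The sign of a member was therefore read against the 500 rows nearest to it in mean abundance. On that scale 3 of 7 members, Sox21a, hdc and zfh2, lay below the median of their neighbours, and 4 lay above it.

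For Sox21a the 500 nearest rows had a median log2 fold change of -0.31, so that the gene lay 0.33 below it (difference -0.33), and 11.6% of those rows were lower still. For hdc the difference was -0.30, with 18.2% of rows lower, and for zfh2 it was -0.27, with 20.4% lower. All 3 genes were inside the range from the 10th to the 90th percentile of their 500 nearest rows. Against 200 nearest rows Sox21a lay just outside it, with 9.0% of rows lower, while hdc and zfh2 were inside. Sox100B, at -0.35 against a median of -0.36 for its nearest rows, was in the middle of them, with 51.8% of rows lower. The mira row lay 0.03 above the median of its nearest rows, the klu row 0.16 above and the spdo row 0.24 above. Sox100B and the rows of mira and klu, though negative as deposited, did not lie below rows of their abundance.

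**Figure D4:**
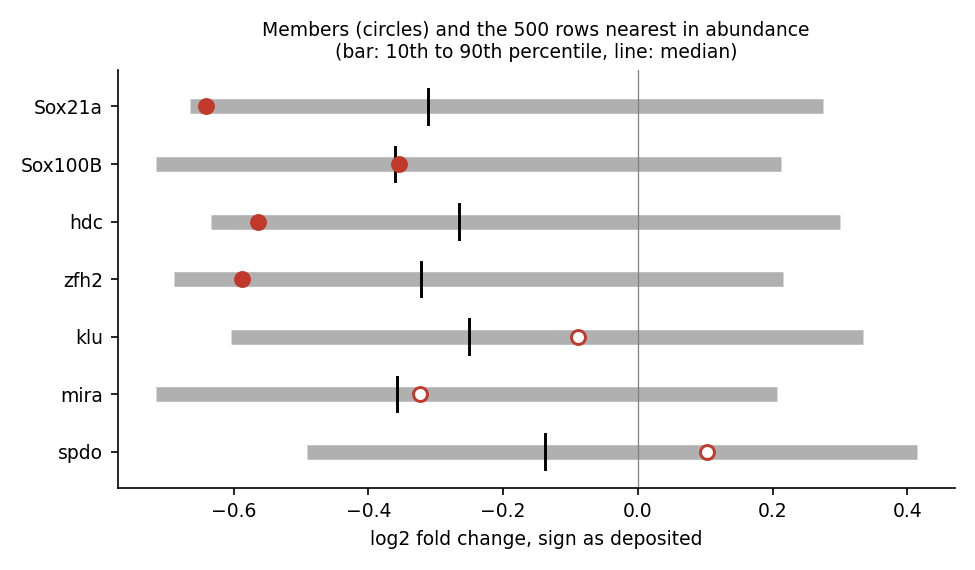
The log2 fold change of each member (circle, open where the row is shared) beside the 500 rows nearest in mean abundance, drawn as a grey bar from the 10th to the 90th percentile with a black line at the median. Sox21a, hdc and zfh2 lie to the left of the median, Sox100B and mira on it within 0.04, and klu and spdo to the right, and all 7 circles are inside their bar.

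The rows called near the members show what size of difference passed the exact test at such abundance. Among the 500 rows nearest to Sox21a, 9 were called with a negative sign and 9 with a positive sign in the authors' deposited table. The negative call nearest to 0 among them stood at -0.98 on the log2 scale of the authors' deposited table, and the positive one at 0.87. Around spdo, 2 rows were called negative and 15 positive in the authors' deposited table, and none of the positive calls lay below 0.92. The member with the largest difference, Sox21a at -0.64, was therefore smaller in size than every call among its nearest 500 rows.

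Genes that work with the members were set beside them in lists, described by counts. These lists were chosen with earlier results of these data known, so a share called is no test. Of 16 progenitor transcription factor genes with a row, 14 had a negative sign in the authors' deposited table, with a median of -0.39. Of these 16, 1 was called positive and 1 negative, 12.5% against 7.10% of all rows. The positive call was sna, of the family of esg, listed at 1.50 (adjusted p = 0.000315) by the authors' deposited table. The negative call was dm, which encodes Myc, which the authors' deposited table lists at -1.09 (adjusted p = 0.0341). The call of dm was lost on adjustment over rows of at least 5 CPM (adjusted p = 0.0565 from the exact-test p of the authors' deposited table). Among the genes not called, the GATA factor gene srp had the smallest p, with -0.91 and 21.3 CPM in the authors' deposited table (adjusted p = 0.0992). The srp row was also listed among the haemocyte markers. Hindsight, the product of peb, another factor of the enteroblast, stood at -0.71 and 405 CPM in the authors' deposited table (adjusted p = 0.243). Read against rows of like abundance, 11 of the 16 lay below the median, by -0.06 in the median of the list. Between Sox100B and hdc in value lay esg, the gene of the driver, at -0.41 by the authors' deposited table (adjusted p = 0.548).

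Sanpodo acts on Notch, and of 14 genes of the Notch response 7 had a negative and 7 a positive sign in the authors' deposited table, with a median of 0.02. The 2 calls, 14.3% of the list against 7.10% of all rows, were positive and of low abundance, E(spl) at 1.94 and 3.46 CPM and HLHmdelta at 2.0 and 1.06 CPM in the authors' deposited table. Their adjusted p by the exact test were 3.13e-05 for E(spl) and 0.00107 for HLHmdelta, as the authors' deposited table has them. In the same list malpha, HLHm3 and HLHmbeta had a negative sign and HLHmgamma a positive sign, and none of these was called. Of 11 rows for the endocytosis of Notch and Sanpodo, spdo included, 1 was called (9.09%, against 7.10% of all rows), the row of nuf, placed at -1.07 by the authors' deposited table (adjusted p = 0.0243). That row is shared with CG32141 and CG7768. The gene numb, whose product binds Sanpodo, was at -0.49 by the authors' deposited table (adjusted p = 0.496).

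Among 20 rows of the machinery of asymmetric division that Miranda belongs to, 15 had a negative sign and the median was -0.30 in the authors' deposited table, close to the -0.32 of the mira row. Against rows of like abundance the median of the list was -0.06 with 12 of 20 rows below, and the mira row lay 0.03 above. The 1 call, 5.0% of the list against 7.10% of all rows, was polo, a mitotic kinase gene, which stands at 0.99 in the authors' deposited table (adjusted p = 0.0349). On adjustment over rows of at least 5 CPM this call was lost, with an adjusted p of 0.0573 from the exact-test p of the authors' deposited table. Of the genes not called, pros and loco, which encodes a regulator of G protein signalling, had the smallest p, and loco stood at -0.72 in the authors' deposited table (adjusted p = 0.208). Cortical polarity genes were not called, with values in the authors' deposited table of -0.69 for baz (adjusted p 0.285), -0.56 for l(2)gl (adjusted p 0.425), -0.35 for the shared row of aPKC, -0.25 for dlg1, -0.18 for the shared row of scrib and -0.08 for par-6. Of the cargo genes, the authors' deposited table puts pros at 0.70 (adjusted p = 0.191) and brat at -0.50 (adjusted p = 0.518).

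Some markers of other cells were called in the same comparison. Their lists too were chosen with earlier results of these data known, so the shares called describe the lists and test nothing. Of 14 enteroendocrine markers, 11 were called positive and none negative in the authors' deposited table (78.6% against 5.17% of all rows), with a median of 1.93 and a range of -0.29 to 4.04. These calls were Ast-C, npf, CG14358, CG13565, amon, Pal, tap, ase, Rab3, Syt4 and nrv3. Of them, Syt4, with the value of 4.04, had a mean of 1.06 CPM, ase 1.38 and tap 3.69. Tk at 0.63, pros at 0.70 and the shared row of Dh31 at -0.29 were not called. Of 13 enterocyte genes, LvpH, CG31004 and bbg were called positive and Jon25Bi, Ance and Jon99Ciii negative in the authors' deposited table (46.2% called, against 7.10% of all rows). Among these, Jon25Bi had a mean of 1.81 CPM and Ance 1.47. The enterocyte rows not called were nub at 0.84, Tsp2A at 0.78, betaTry at 0.57 and alphaTry at 0.44. So were Myo31DF at -0.56, Amy-p at -0.28 and Myo61F at -0.11. Of 7 visceral muscle markers, up, Zasp66 and sls were called positive in the authors' deposited table, as were Sr-CI and lz of 4 haemocyte markers, while crq was called negative. The share called was 42.9% of the visceral muscle rows and 75.0% of the haemocyte rows, against 7.10% of all rows. Among these calls, up had a mean of 2.61 CPM, Zasp66 1.26, Sr-CI 2.65, lz 12.8 and crq 226 in the authors' deposited table. Not called were the muscle rows of Mef2 at -0.48, Act57B (shared) at -0.23, how at 0.03 and Mlc2 at 0.09. The calls of bbg and sls belong to 14 rows, sls included, within 0.1 of sls in both log2 fold change and log2 CPM and are uncertain. None of the 7 progenitor genes was called in either direction. The part of these other cells in the values of Sox21a, hdc and zfh2 was not tested.

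**Figure D5:**
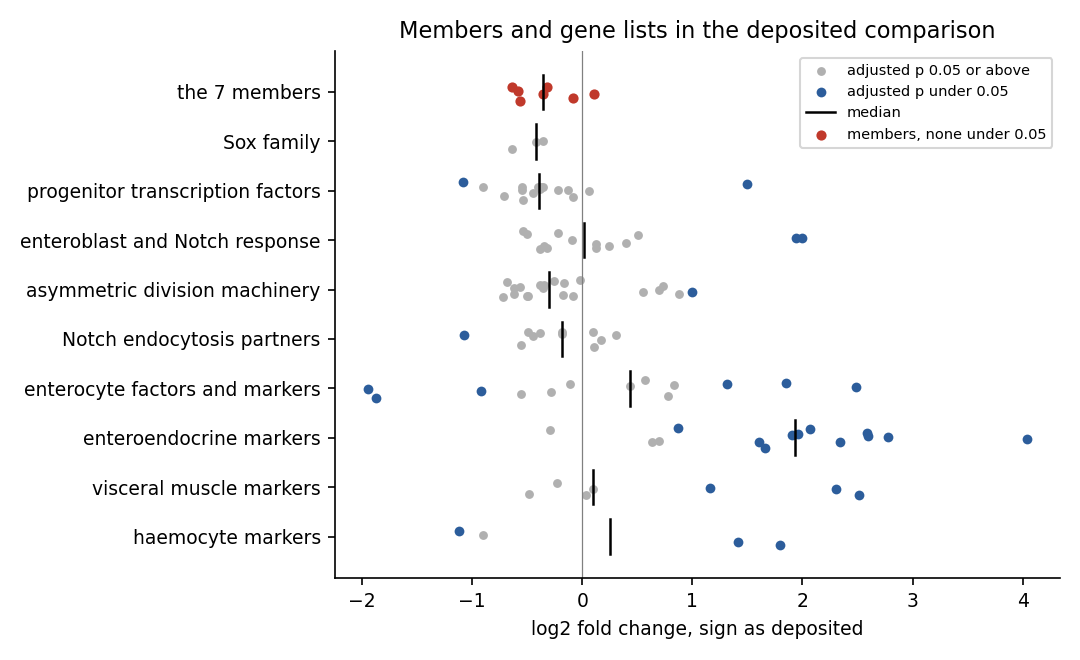
Log2 fold change, sign as deposited, of the 7 members and of the genes of each list, with black lines at the medians and blue points for rows with an adjusted p under 0.05. The members lie between -0.64 and 0.10 with none called, and 11 of 14 enteroendocrine markers are called on the positive side.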

How the data were processed

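RNA was measured in 6 samples, 3 old and 3 young, with groups taken from the sample titles. Libraries were made with the TruSeq RNA kit, per the labels' protocols. Per the submitters' processing notes, TopHat 1.2.0, Bowtie, edgeR and FastQC were among the tools and dm3 was the build, without their roles. The method of read counting is not given in the sources. Per the file headers, the authors deposited for each row a log2 fold change and a mean log2 CPM. They also deposited its p-value, raw and adjusted, from an exact test by the name of the table. The 12 library columns of each table, 6 of counts and 6 of CPM, match no sample label and entered no computation, so the planned fit on counts was not run, no depth or interval is given and no test was added.

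The deposited adjusted p equals a Benjamini-Hochberg adjustment over all 8164 rows, within 2.56e-15, and none of the 7 members is in the second table of 580 rows. Rows were joined to the BDGP6 annotation of Ensembl release 115 by transcript identifier, for gene identifiers, exon lengths and overlaps only; 12 of 13 transcripts of the members matched. Coordinates are the dm3 ones of the deposited table. Adjustment and nearest-row medians were tested on simulated data. The members and lists were chosen with earlier results of these data known. The text names all members, each called list gene, and srp, pros and loco by the smallest p among the rest of their lists. Chosen by role after their values were seen were esg, peb, numb, baz, l(2)gl, aPKC, dlg1, scrib, par-6, brat, N, Dl and Tk. Also named after their values were seen were HLHmbeta, HLHm3, HLHmgamma, malpha, Mef2, Act57B, how and Mlc2. The same holds for Dh31, nub, Tsp2A, betaTry, alphaTry, Myo31DF, Amy-p and Myo61F. Where nothing says that the 3 samples of an age came from more than separate batches of midguts, p-values measure the spread between these. Alternatives were thresholds of 0.01 and 0.1, adjustment over rows of at least 5 CPM or of 1 gene, centring on all rows or on the 500 nearest, and 200 or 1000 nearest rows. The tools were Python 3.11.15 with pandas 2.3.3, matplotlib 3.10.9, scipy 1.17.1 and numpy 2.4.6.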

Additional observations from a re-analysis of the deposited data

How the results depend on the processing

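No member was called at an adjusted p under 0.01 or under 0.1, nor after adjustment over the 6033 rows of at least 5 CPM, and none of the 4 rows of 1 gene was called after adjustment over the 7575 rows of 1 gene. Of the gene lists, 29 distinct rows were called at 0.05, 23 at 0.01, 31 at 0.1, and 17 after adjustment over rows of at least 5 CPM. Of the 12 fewer, 10 were under 5 CPM and so not tested, and 2, dm (adjusted p = 0.0565) and polo (adjusted p = 0.0573), were tested and lost their call. Less the median of all rows, 0.05, every member kept its sign. Less the median of the 500 nearest rows the sign turned for Sox100B (0.0066), mira (0.034), klu (0.16) and for the median of the visceral muscle list (-0.040). With 1000 nearest rows the difference of Sox100B was -0.015, and 4 of 7 members then lay below the median, against 3 of 7 with 200 or 500. With 200, Sox21a lay below the 10th percentile of its nearest rows (-0.6409 against -0.6396). No paired analysis was possible because the library columns match no sample label, and for the same reason no sample could be left out in turn and no other normalization or count filter was run.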

Other observations

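The rows beside the members on the chromosome, 3 on each side, were read after their values had been seen. Of these 42 rows, 6 were called in the authors' deposited table, 14.3% against 7.10% of all rows, 4 with a negative and 2 with a positive sign, and 5 of the 6 had a mean under 5 CPM. Around Sox21a 3 of 6 neighbours were called in the authors' deposited table. These were CG8100 at 1.21, Fbp1, a storage protein receptor gene of the fat body, at -0.94, and the row nuf;CG32141;CG7768 at -1.07, so that the calls beside Sox21a went both ways. Around zfh2, klu, mira and spdo no neighbour was called in the authors' deposited table. All 6 neighbours of zfh2 on chromosome 4 shared its negative sign in the authors' deposited table, with none called.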
